A study of Mus musculus with 51 samples.

Results

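The transcript response of the mammary gland (MG) of female BALB/c mice was examined 4 hr after the last of 4 weekly high dose (HD) X-ray exposures. All 7 arrays whose titles gave this strain, tissue, dose and time were taken, 4 HD and 3 sham, of 51 arrays in the series. The study compared BALB/c, a strain sensitive to radiation-induced mammary cancer, with the more resistant C57BL/6, after a low dose (LD) or HD, at 4 hr and at 1 month, in MG and blood. Each array held RNA from the 4th pair of glands of 1 virgin mouse, and the inguinal lymph nodes had been taken out. HD mice received 4 whole-body fractions of 1.8 Gy, starting at 8 weeks of age, and the sham mice followed the same schedule and harvest time without radiation. The LD mice used for comparison received 4 fractions of 7.5 cGy. The mice were not synchronized for estrous cycle. All BALB/c MG arrays were on 1 plate.

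Irradiated cells stabilize the transcription factor p53, which switches on genes that halt the cell cycle, repair DNA, feed back on p53 itself or start apoptosis. A MG is mostly fat crossed by ducts, in which luminal epithelium lines the lumen and contractile myoepithelium surrounds it, with fibroblasts, vessels and macrophages around them. MHC class II molecules, carried by dendritic cells, B cells and many macrophages, present peptides to helper T cells.

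Among 11807 genes, each read at its brightest probe set, 329 were higher (2.79%) and 367 were lower (3.11%) in HD than in sham glands at an adjusted p below 0.05 (limma, p adjusted over all 22626 probe sets), 5.89% in all. At an unadjusted p below 0.05 there were 2662 (22.5%). With the study's own limits (a change of more than 0.58 log2 units in either direction and p below 0.01 before adjustment) 154 were higher (1.3%) and 345 lower (2.92%). Of the genes called, 27 were higher and 104 were lower by more than 2-fold. Of the 12 genes with the largest rise by the rule given further on, 8 were listed p53 targets. Of the 12 with the largest fall, 8 were listed MHC class II or luminal epithelial genes. The p53 lists held 30 and 18 of the 11807 genes, and the class II and luminal lists 12 and 45. These lists were chosen with earlier results of these data known, so the overlap is not independent support. Without HD replicate 1, 351 genes were higher (2.97%) and 364 lower (3.08%), and 280 and 296 of these were the same genes as with all arrays. The counts were smaller without HD replicate 3 (118 higher and 122 lower), HD replicate 4 (132 and 130) or a sham array (157 and 103 without replicate 1, 96 and 166 without replicate 2). In all 7 fits that left out 1 array, 69 genes were higher (0.584%) and 68 lower (0.576%). Over 17 refits with other settings, 15 genes were higher in every refit (0.127%) and 0 lower. The refit with brighter probe sets only dropped dim genes, which therefore could not be counted here. Gtse1, for example, was higher in all 16 refits in which it had a value. HD arrays lay in plate columns 6 to 8 and sham arrays in columns 1 to 4, so within these 7 arrays plate column and treatment cannot be told apart. With plate column as a covariate over all 20 BALB/c MG arrays, 17 genes were higher and 0 lower (0.144% and 0% of genes).

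HD replicate 1 carried transcripts of skeletal muscle. Its 29 skeletal muscle genes averaged 5.52 log2 units above the median BALB/c array, against 1.52 on sham replicate 1 and −0.09 to −0.01 on the other 5 arrays. Myh4, a myosin of fast muscle, had log2 values of 11.87, 4.04, 4.07 and 4.14 on the HD arrays and 7.36, 4.47 and 4.28 on the sham arrays. The epidermal and hair list was also highest on HD replicate 1, at 0.54, against −0.10 to −0.04 on the other HD arrays and −0.02 to 0.42 on the sham arrays. None of the 29 muscle genes passed the test. Their median log2 fold change was 0.86 with all arrays and −0.42 without HD replicate 1. Correlations between any 2 of the 7 arrays over all probe sets lay between 0.974 and 0.991.

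The largest change was in Cdkn1a (p21, the inhibitor of cyclin dependent kinases that carries out the p53 arrest). A short stretch before an annotated start of Cdkn1a and of 2 other p53 targets that rose is shown because each held a match to the p53 response element, the DNA sequence that p53 binds. Capitals mark the match, which allows 1 mismatch over a pair of 10-base half-sites. The sequences are from RefSeq, build GRCm38.p6, the C57BL/6J reference and not BALB/c. The Cdkn1a stretch is chr17:29090888-29090978 on the plus strand, with the match at 51 to 32 bases before the start. The Ccng1 stretch is chr11:40755422-40755521 on the minus strand, with the match at 195 to 176 bases before the start. The Gtse1 match, chr15:85859945-85859964 on the plus strand, overlaps an annotated start and is printed alone.
Cdkn1a: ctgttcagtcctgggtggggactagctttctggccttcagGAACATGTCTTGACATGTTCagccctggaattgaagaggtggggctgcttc
Ccng1: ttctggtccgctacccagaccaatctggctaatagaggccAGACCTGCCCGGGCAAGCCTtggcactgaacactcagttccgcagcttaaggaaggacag
Gtse1: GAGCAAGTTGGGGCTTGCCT
Such a match, with 0 or 1 bases between the half-sites, was present in 36 of 32851 promoter windows of 300 bases (0.11%). It was found in 3 of the 17 p53 list genes that rose and had a window, and in 0 of 23 list genes that did not pass the test. A match is a description of these letters and not evidence of binding, and p53 also binds outside such windows.

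Cdkn1a (chr17:29090979-29100722) had log2 values of 10.44, 10.73, 10.48 and 10.63 on the HD arrays and 6.33, 7.75 and 7.55 on the sham arrays. Every HD array was above every sham array, and the sham arrays were the more variable. The change was 10.2-fold (log2 3.36 ± 0.31 SE, adjusted p = 6.17e-06). Of 30 measured p53 targets of arrest and feedback, 15 rose, 0 fell and 15 did not pass, with a median log2 fold change of 0.48 against −0.00397 over all genes. Left out 1 array at a time, 11 to 14 of them rose, and 1 member fell without HD replicate 2. With plate column as a covariate 10 rose.

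Regulators of p53 itself were among the 15. Mdm2 (chr10:117688875-117710758), the ubiquitin ligase that degrades p53, had log2 values of 9.48, 9.47, 9.64 and 9.47 in HD and 8.34, 8.39 and 8.53 in sham glands. Ccng1 (chr11:40748552-40755309), the cyclin G1 gene, had values of 11.45, 11.22, 11.27 and 11.06 against 10.04, 9.82 and 10.02. Trp53inp1 (chr4:11156441-11174379), a p53 cofactor, had values of 10.62, 10.51, 10.47 and 10.37 against 8.51, 8.81 and 8.85. In these genes the HD and sham arrays did not overlap and the spread within each group was small. The increases were 2.14-fold for Mdm2 (adjusted p = 2.93e-06), 2.44-fold for Ccng1 (1.11e-06) and 3.4-fold for Trp53inp1 (1.53e-05). Zmat3, an RNA-binding target of p53, rose 2.3-fold, and Sesn2, a stress-inducible inhibitor of mTORC1 signaling, rose 2.09-fold. Phlda3, an inhibitor of Akt, rose 1.95-fold and Btg2, an antiproliferative gene, 1.55-fold. The call for Btg2 (adjusted p = 0.0499) was lost when any of the 7 arrays was left out, and that for Phlda3 when any of 5 was. Ppm1d, a phosphatase that damps the p53 response, did not pass (log2 0.36 ± 0.18 SE, adjusted p = 0.257).

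The other called members of the list have roles in DNA repair, detoxification and cell division. Polk (chr13:96480687-96542579), a polymerase that copies past damaged bases, had log2 values of 8.28, 8.12, 7.95 and 7.70 in HD and 6.12, 6.63 and 6.52 in sham glands, a 3.01-fold increase (adjusted p = 4.57e-06). Ercc5, a nuclease of nucleotide excision repair, rose 1.5-fold and Mgmt, which removes alkyl groups from guanine, 1.48-fold. Ephx1, the microsomal epoxide hydrolase, rose 2.67-fold and Dcxr, a carbonyl reductase, 2.88-fold. Psrc1, a spindle-associated gene, rose 3.06-fold and Gtse1, a p53-binding gene of G2 and S phase, 2.52-fold. Of the repair genes in the list, Ddb2 and Xpc, which recognize damaged bases, and Rrm2b, a ribonucleotide reductase subunit, did not pass. Ddb2 had a log2 fold change of −0.07 ± 0.12 SE (adjusted p = 0.831), which was above 0 with arrays centred on their medians or quantile normalization repeated. Xpc had 0.22 ± 0.13 SE (0.36) and Rrm2b 0.37 ± 0.11 SE (0.0625). Sesn1 (log2 −0.43 ± 0.16 SE, adjusted p = 0.121) and Plk2 (log2 −0.46 ± 0.20 SE, adjusted p = 0.191) had values below sham that did not pass the test.

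**Figure D1:**
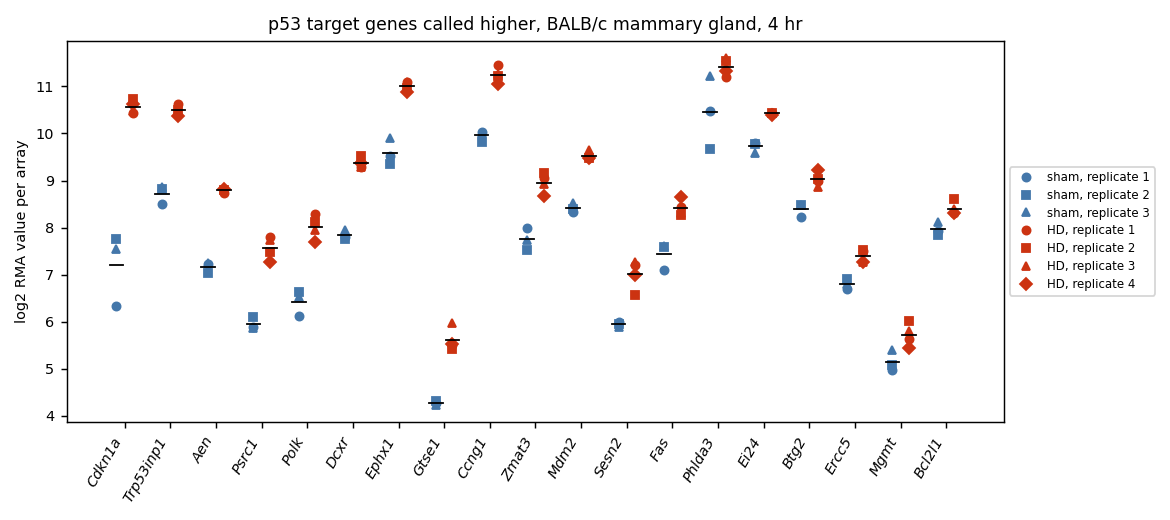
Log2 RMA value (y axis) on each of the 4 HD (red) and 3 sham (blue) arrays for the 19 p53 list genes called higher (x axis, by falling fold change); bars are group means. Cdkn1a lay between 10.44 and 10.73 in HD and between 6.33 and 7.75 in sham glands.

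Of 18 p53-linked apoptosis genes, 4 rose and 0 fell, with a median log2 fold change of 0.36. Aen (chr7:78895927-78911209), an apoptosis-enhancing nuclease, had log2 values of 8.74, 8.80, 8.79 and 8.83 in HD and 7.23, 7.03 and 7.25 in sham glands. The HD arrays differed among themselves by less than the sham arrays, and the rise was 3.08-fold (adjusted p = 1.53e-05). The 3 probe sets of Aen had log2 fold changes from 0.06 to 1.83. Fas, the death receptor, rose 1.98-fold and Ei24, a p53-induced gene of the endoplasmic reticulum, 1.63-fold. Bcl2l1, the survival gene that encodes Bcl-xL and therefore acts against apoptosis, rose 1.36-fold. Bbc3 (Puma, a killer of the Bcl2 family) was 0.45 ± 0.16 SE log2 units above sham, which did not pass (adjusted p = 0.0984). Aen and Ei24 were higher with plate column as a covariate, and Fas and Bcl2l1 did not pass there (adjusted p = 0.233 and 0.479).

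Several genes outside the p53 lists were among the 12 that rose most, chosen among genes called with and without HD replicate 1 whose HD and sham arrays did not overlap (9.17% of all genes had every HD array above every sham array). Slc19a2 (chr1:164249046-164265385), a thiamine transporter, had log2 values of 8.64, 8.37, 8.54 and 8.52 in HD and 6.62, 6.45 and 5.96 in sham glands. It was second in size to Cdkn1a at 4.52-fold and had the smallest adjusted p of the 11807 genes (2.02e-07). Npr3, the clearance receptor for natriuretic peptides, was 3.07-fold higher and Dglucy, a D-glutamate cyclase, 2.52-fold. Ak1, an adenylate kinase, was 3-fold higher with all arrays, and its value of 9.55 on HD replicate 1 compared with 8.48, 8.18 and 8.22 on the other HD arrays. Without that array its log2 fold change was 1.27 instead of 1.58.

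**Figure D2:**
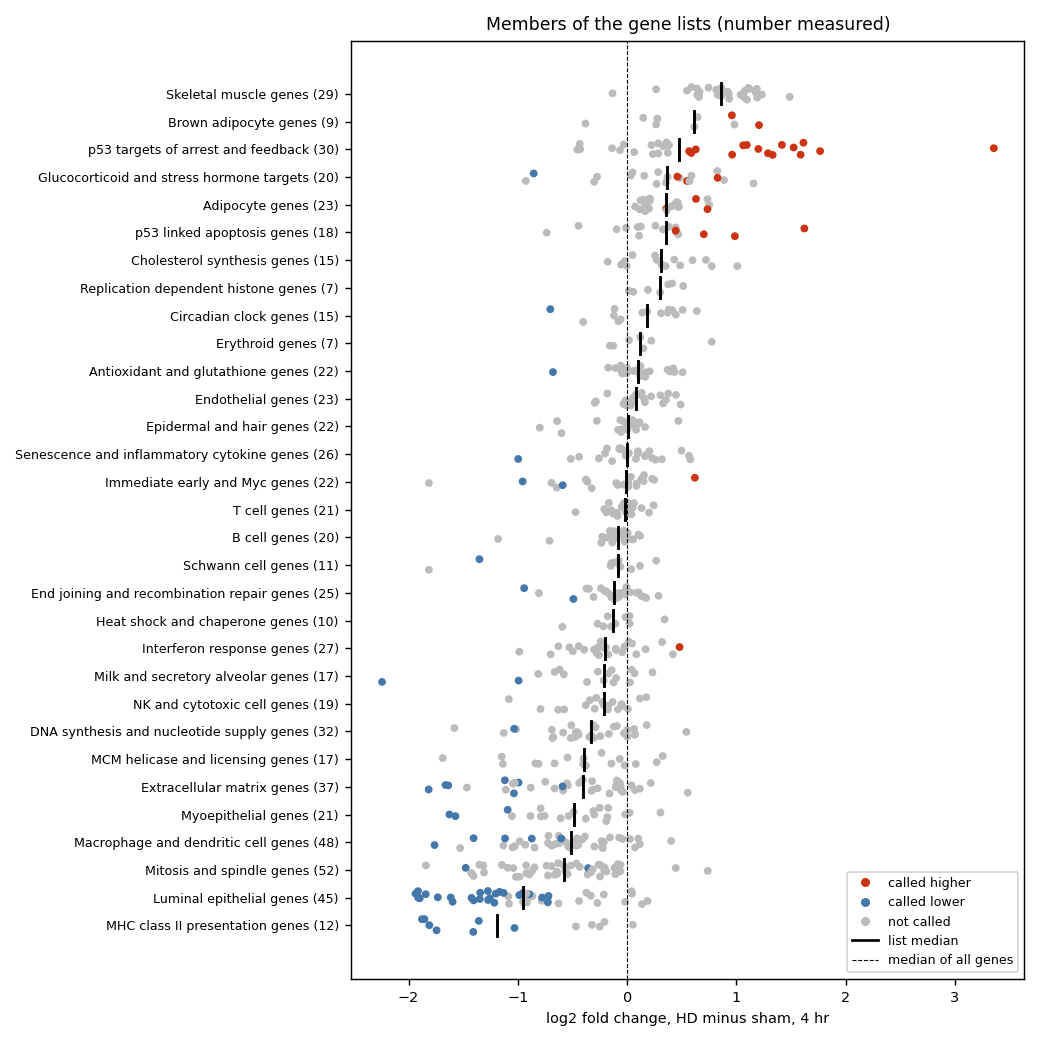
Log2 fold change, HD minus sham at 4 hr (x axis), of each measured member of the 31 gene lists (y axis, number measured in parentheses), coloured by call, with the list median as a thick bar and the median of all genes as a dashed line. The MHC class II list has the lowest median (−1.19) and the 7 members called are all lower; the muscle list has the highest (0.86) with no member called.

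MHC class II transcripts fell. Of 12 genes of class II presentation, 7 fell, 0 rose and 5 did not pass, with a median log2 fold change of −1.19. H2-Ab1 (chr17:34263227-34269418), the beta chain of I-A, had log2 values of 8.20, 7.32, 8.13 and 7.74 in HD and 9.81, 9.67 and 9.63 in sham glands. H2-Aa (chr17:34282744-34287823), its alpha chain, had values of 9.61, 9.15, 9.72 and 9.09 against 11.27, 11.10 and 11.25. Cd74, the invariant chain that guides class II molecules to peptide-loading compartments, had values of 9.78, 9.51, 9.94 and 9.50 against 11.15, 10.98 and 11.15. The sham arrays lay within 0.2 log2 units of each other in these genes, and every HD array was below all of them. The decreases were 3.62-fold for H2-Ab1 (adjusted p = 0.00236), 3.51-fold for H2-Aa (0.00609) and 2.66-fold for Cd74 (0.00487). In whole glands, fewer cells of a type and less RNA per cell cannot be told apart.

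H2-Ea and H2-Eb1, the chains of I-E, were 3.68-fold and 3.35-fold lower. H2-DMa and H2-DMb2, which load peptide onto class II molecules, were 2.04-fold and 2.56-fold lower, and the call of H2-DMa was lost in all 7 fits that left out 1 array, that of H2-DMb2 in all but the fit without HD replicate 1. Ciita, the coactivator that controls class II transcription, had a log2 fold change of −0.21 ± 0.18 SE and log2 values of 4.10 to 4.41 over the 7 arrays (adjusted p = 0.562). H2-DMb1 did not pass either (log2 −0.47 ± 0.41 SE, adjusted p = 0.571). The spread in the fit took in HD replicate 1 at 1 month, where the class II list was 1.43 above the median array. That limits what a failure to pass can show for class II genes. C57BL/6 mice carry no working H2-Ea gene, and H2-Ea was at 4.22 ± 0.15 (SD, n = 3) on the C57BL/6 sham arrays against 11.07 ± 0.14 (SD, n = 3) on the BALB/c sham arrays at 4 hr. H2-Ea thus separated the strains as labelled. Left out 1 array at a time, 5 or 6 of the 12 genes fell. HD replicate 1, sham replicate 1 and LD replicates 1 and 2 at 4 hr held muscle or skin transcripts, and without them 2 fell. Arrays that stayed in that fit held some too, with the muscle list at 2.06 on HD replicate 3 at 1 month. It was 0.72 and 0.82 on LD replicates 3 and 4 at 4 hr. With plate column as a covariate 0 fell and the median was −0.68.

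Stretches before the starts of H2-Aa and H2-Eb1 (RefSeq, GRCm38.p6) are shown because class II promoters are known for a box with the letters CCAAT, bound by NF-Y. Capitals mark CCAAT read on either strand. The H2-Aa stretch is chr17:34287827-34287911 on the minus strand and the H2-Eb1 stretch chr17:34305768-34305866 on the plus strand.
H2-Aa: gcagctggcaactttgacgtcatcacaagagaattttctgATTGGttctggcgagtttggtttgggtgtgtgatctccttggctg
H2-Eb1: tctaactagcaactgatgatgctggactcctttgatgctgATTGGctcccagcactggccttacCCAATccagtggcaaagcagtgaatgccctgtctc
Of the class II genes that fell, 4 had a promoter window and all 4 held CCAAT, as did 7 of the 8 listed genes with a window. The letters are common: 37.4% of all 32851 windows held them. Counted by gene, 42.7% of all tested genes with a window held them, 48.3% of genes called higher and 39.2% of genes called lower.

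Genes of luminal epithelium fell as a group. Of 45 measured, 25 fell, 0 rose and 20 did not pass, and the median log2 fold change was −0.96. Krt8 (chr15:101996711-102004342), a keratin of simple epithelium, had log2 values of 9.87, 9.10, 9.35 and 8.35 in HD and 11.34, 10.87 and 11.11 in sham glands. Krt19 (chr11:100140810-100145926), another such keratin, had values of 10.13, 9.21, 9.51 and 8.39 against 11.56, 11.06 and 11.01. Cd24a (chr10:43579169-43584265), a surface protein used to sort mammary epithelium, had values of 10.64, 9.96, 10.33 and 9.64 against 11.52, 11.57 and 11.61. The same order recurred in these genes, with HD replicate 1 highest and HD replicate 4 lowest of the HD arrays, and no HD array reached a sham array. The decreases were 3.83-fold for Krt8 (adjusted p = 0.00332), 3.73-fold for Krt19 (0.00643) and 2.68-fold for Cd24a (0.00078).

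Krt18, the partner of Krt8, was 2.65-fold lower, Epcam, an epithelial adhesion molecule, 2.32-fold and Cdh1, E-cadherin, 2.55-fold. The claudins Cldn7 and Cldn3, which seal tight junctions, were 3.59-fold and 3.03-fold lower, and the other claudins listed, Cldn4 (log2 −0.44 ± 0.35 SE, adjusted p = 0.522) and Cldn8 (log2 −0.73 ± 0.35 SE, 0.244), did not pass. Elf5 and Ehf, ETS factors of epithelium (Elf5 drives the alveolar fate), were each 3.77-fold lower. The luminal factors Foxa1 (log2 −0.90 ± 0.33 SE, adjusted p = 0.117) and Gata3 (log2 −0.78 ± 0.38 SE, 0.244) did not pass. Kit, a receptor of luminal progenitors, was 2.19-fold lower and Erbb3, a receptor of the EGF family, 2.3-fold. The ion transport regulator Fxyd3 was 2.54-fold and the mucin Muc1 2.42-fold lower. Wnt4, a signal downstream of progesterone, had a log2 fold change of −0.87 ± 0.28 SE that did not pass (adjusted p = 0.0751).

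The count of luminal genes depended on single arrays. The count was 26 when HD replicate 1 was left out, 16 when HD replicate 2 or 3 was, and 11 when HD replicate 4 was. It was 8, 18 and 13 when sham replicate 1, 2 or 3 was left out. The list median stayed between −1.14 and −0.77 in these fits. With plate column as a covariate 0 genes passed and the median was −1.10, and with only the 7 arrays in the fit 6 passed. The mean level of the list was 0.59 to 1.66 log2 units below the median BALB/c array in HD glands, against −0.34 to 0.05 in sham glands.

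Muc15 (chr2:110721494-110739537), a milk fat globule mucin, had the lowest log2 fold change of all genes tested, with log2 values of 6.32, 5.87, 6.68 and 5.70 in HD and 8.55, 7.54 and 9.07 in sham glands (4.74-fold lower, adjusted p = 0.0119). Of the 17 milk and secretory genes 2 fell and 0 rose. The 12 lowest, chosen as the 12 highest were (10% of all genes had every HD array below every sham array), also held Crym, a thyroid hormone binding protein (4.31-fold), Crispld1 (3.95-fold) and the epithelial progenitor marker Plet1 (3.6-fold).

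**Figure D3:**
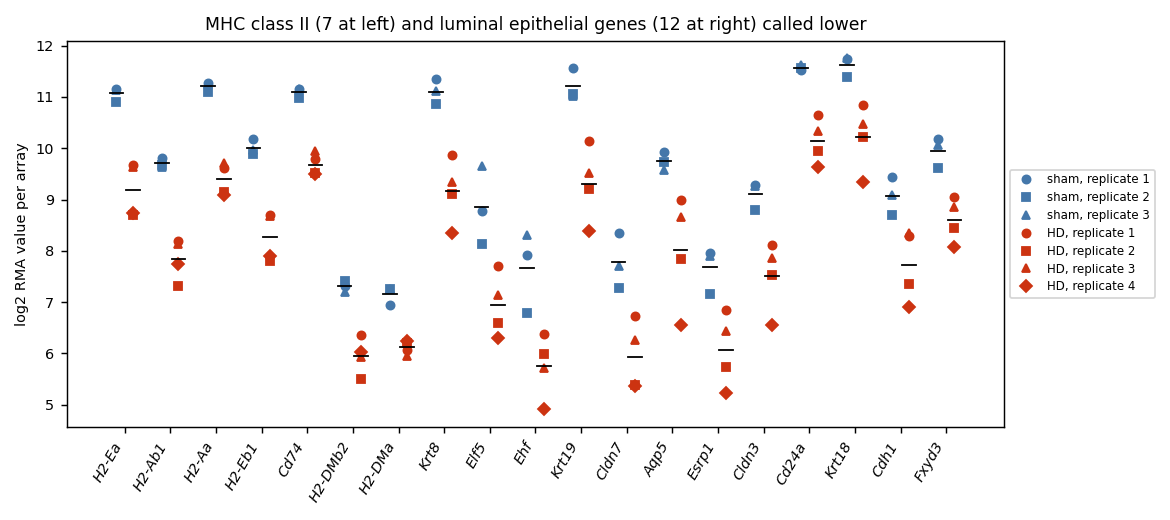
Log2 RMA value (y axis) on each HD (red) and sham (blue) array for the 7 MHC class II genes called lower and the 12 luminal genes with the lowest fold changes among those called; bars are group means. Sham values of the class II genes cluster tightly, and HD replicate 4 has the lowest value of Krt8 (8.35) and Krt19 (8.39).

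Of 21 myoepithelial genes 3 fell and 0 rose. The count was 0 without HD replicate 4 or sham replicate 1, 1 without HD replicate 2 or 3 or sham replicate 2 or 3, and 4 without HD replicate 1. Trp63, the p63 factor of basal cells, was 2.13-fold lower, Moxd1 3.09-fold and Igfbp2, an IGF binding protein, 2.97-fold. The basal keratins did not pass (Krt5 log2 −0.88 ± 0.31 SE, adjusted p = 0.107; Krt14 log2 −0.61 ± 0.29 SE, adjusted p = 0.249), nor did Acta2, smooth muscle actin (log2 −0.54 ± 0.16 SE, adjusted p = 0.0549). Sox10, listed as a Schwann cell gene and also known from mammary epithelium, was 2.55-fold lower and was the member of the 11 Schwann genes that passed.

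Extracellular matrix genes fell in part, 7 of 37 with 0 that rose and a median of −0.41. Mfap2, a microfibril protein, had log2 values of 8.05, 8.41, 7.32 and 7.94 in HD and 9.43, 9.62 and 9.65 in sham glands, 3.11-fold lower (adjusted p = 0.00609). Fbn2 (fibrillin 2) was 3.17-fold, Eln (elastin) 1.99-fold, Fn1 (fibronectin) 2.05-fold, Col1a1 (type I collagen) 2.17-fold, Col9a1 3.52-fold and Serpinh1, the collagen chaperone, 1.51-fold lower. Col3a1, type III collagen, did not pass (log2 −0.32 ± 0.11 SE, adjusted p = 0.103). In this list 1 gene fell without sham replicate 2, 2 fell without HD replicate 3, HD replicate 4 or sham replicate 1, 3 fell without HD replicate 1 and 10 fell without sham replicate 3. Mfap2 was called in all 7 fits that left out an array.

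Of 48 macrophage and dendritic cell genes 5 fell, 0 rose and 43 did not pass. Clec7a (dectin-1, a receptor for fungal glucans) had log2 values of 6.58, 6.51, 6.59 and 6.82 in HD and 7.75, 8.13 and 8.21 in sham glands, 2.65-fold lower (adjusted p = 0.00269). Ccr2, the monocyte chemokine receptor, had values of 5.93, 6.09, 5.70 and 6.44 against 7.48, 8.85 and 7.07, 3.39-fold lower (adjusted p = 0.0117). Cd14, the coreceptor for lipopolysaccharide, was 1.83-fold lower, Cx3cr1, the fractalkine receptor, 1.52-fold and Lst1 2.17-fold. The defining markers did not pass: Adgre1 (F4/80) had a log2 fold change of −0.69 ± 0.34 SE (adjusted p = 0.25) and Csf1r of −0.47 ± 0.22 SE (0.226). Cd68, the other marker set for macrophages, did not pass either. The list was highest on sham replicate 2, at 1.20 above the median array. Without that array its median log2 fold change was −0.21 instead of −0.51 and 1 gene fell, against 2 without sham replicate 1 and 3 without HD replicate 2, 3 or 4. None of the 21 T cell, 20 B cell or 19 NK and cytotoxic cell genes passed. The spread in the fit took in HD replicate 1 at 1 month, where these lists were 2.28, 2.61 and 0.86 above the median array. That limits what a failure to pass can show. Values were below sham for 11 T cell, 15 B cell and 16 NK genes, against 5988 of all 11807. The mean level of the NK list was −0.09 to −0.02 on the HD arrays and 0.12 to 0.38 on the sham arrays. Ptprc (CD45, carried by all leukocytes) had a log2 fold change of −1.21 ± 0.55 SE (adjusted p = 0.214).

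Genes of cell division seldom passed. The shares that fell were at 0 or near the background of 3.11% of all genes lower. Of 52 mitosis genes 2 fell, with a median of −0.58, and of 32 DNA synthesis genes 1 fell, with a median of −0.33. Of 17 MCM and licensing genes 0 fell, with a median of −0.40. Most members were below sham all the same: 50 mitosis, 25 DNA synthesis and 14 MCM and licensing genes, against 5988 of all 11807 genes. At an unadjusted p below 0.05 there were 29, 13 and 7 in these lists, against 22.5% of all genes. Stmn1 (stathmin, which destabilizes microtubules) had log2 values of 7.92, 8.50, 7.46 and 8.02 in HD and 9.59, 9.77 and 9.01 in sham glands, 2.79-fold lower (adjusted p = 0.038). Foxm1, a factor of mitotic genes, was 1.28-fold and Lig1, the ligase that joins Okazaki fragments, 2.05-fold lower. Mcm6, a subunit of the replicative helicase, had values of 5.76, 6.51, 5.26 and 6.16 against 8.47, 7.96 and 6.41 and did not pass (adjusted p = 0.0511), and HD replicate 2 lay above sham replicate 3. Mcm7 (log2 −0.81 ± 0.24 SE, adjusted p = 0.0578), Cdt1 (log2 −1.14 ± 0.36 SE, 0.0709), Mcm5 (log2 −1.15 ± 0.41 SE, 0.108) and Uhrf1 (log2 −1.13 ± 0.37 SE, 0.0816) did not pass. Among sham arrays, replicates 1 and 2 had the mitosis list 0.60 and 0.89 above the median array and replicate 3 had it 0.06 above. Without sham replicate 3, 11 mitosis, 7 DNA synthesis and 4 MCM and licensing genes fell. Without HD replicate 3, HD replicate 4, sham replicate 1 or sham replicate 2, 0 mitosis genes fell, and 1 fell without HD replicate 1. Of 25 genes of end joining and recombination 2 fell, against 3.11% of all genes. They were H2ax (1.92-fold) and Trp53bp1 (1.41-fold), both of the chromatin around double-strand breaks. Both calls were lost without HD replicate 3 or 4 or sham replicate 1 or 2. In this list 1 gene fell without HD replicate 1, and 0 fell with plate column as a covariate.

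Fat genes were slightly higher. All 23 adipocyte genes had positive log2 fold changes, against 5819 of all 11807 genes, with a median of 0.36. Of these 3 passed, against 2.79% of all genes called higher. They were Plin4, a lipid droplet coat protein (1.67-fold), Lgals12 (1.55-fold) and Cebpa, a factor of adipocyte differentiation (1.28-fold). The mean level of the adipocyte list was 0.15 to 0.41 on the HD arrays and −0.25 to 0.17 on the sham arrays, which overlapped. With plate column as a covariate 0 of them passed and the median was 0.17. The defining markers Adipoq (log2 0.16 ± 0.08 SE), Fabp4 (log2 0.12 ± 0.07 SE) and Lep did not pass. In the brown adipocyte list Cox7a1 (2.31-fold) and Cpt1b (1.94-fold) rose, both genes that oxidative muscle also expresses. Without HD replicate 1, 2 genes of this list were higher and its median log2 fold change was 0.39 instead of 0.61. The mean level of the list was 0.61 on HD replicate 1 and 0.52 to 0.77 on the other HD arrays. It was −0.22 to 0.53 on the sham arrays, so the groups overlapped. With plate column as a covariate 0 genes of this list passed and its median was 0.07. Muscle as a source of these transcripts was not tested. None of the 23 endothelial genes passed. Without HD replicate 4, 0 adipocyte and 0 brown adipocyte genes passed.

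Single genes passed in other lists, and many of these calls were lost without 1 array. In the glucocorticoid list Map3k6 (1.77-fold), Sult1a1 (1.38-fold) and the metallothionein Mt1 rose and Cdkn1c, the inhibitor p57, fell 1.81-fold. Among immediate early genes Klf4 rose 1.54-fold, and Myc (1.94-fold) and Ier3 (1.51-fold) fell. Tgfb3, a TGF-beta ligand, fell 2-fold and was the sole gene called among 26 senescence and inflammatory cytokine genes. Gbp2, a guanylate binding protein, rose 1.39-fold and was the sole gene called among 27 interferon response genes. Arntl (1.63-fold, a core clock factor) and Gpx3 (1.6-fold, a secreted glutathione peroxidase) fell. Anxa8 (2.05-fold), Cdh13 (1.73-fold, T-cadherin) and Fbxo21 (1.53-fold), genes that the study names, rose, and Zbtb16 did not pass (log2 1.16 ± 0.35 SE, adjusted p = 0.0645).

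**Figure D4:**
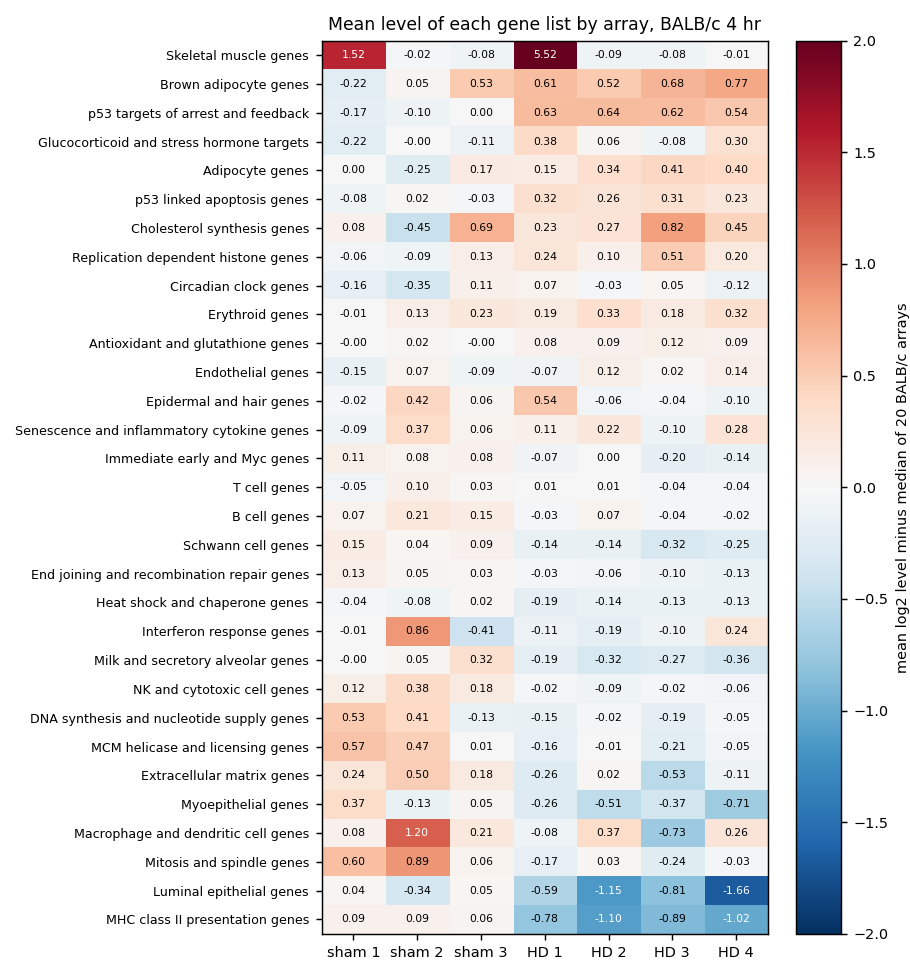
Mean log2 level of each gene list (y axis) on each BALB/c 4 hr HD and sham array (x axis), minus the median of the 20 BALB/c MG arrays; colour is capped at ±2 and cells carry the value. The muscle list reaches 5.52 on HD replicate 1 and 1.52 on sham replicate 1, and the class II and luminal lists are below 0 on all 4 HD arrays.

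HD was also compared with LD at the same time, as a contrast of these groups in the fit over all 20 BALB/c MG arrays. There were 321 genes higher (2.72%) and 610 lower (5.17%) in HD than in LD glands, 7.89% in all. LD arrays lay in plate columns 9 to 12, so here too plate column and dose cannot be told apart. The total of 931 was 187 with plate column as a covariate and 334 with plate row. It was 198 without HD replicate 1, sham replicate 1 and LD replicates 1 and 2, which held muscle or skin transcripts. Of the p53 arrest list 15 of 30 were higher and 1 was lower, and of the apoptosis list 8 of 18 were higher. Cdkn1a was 3.05 log2 units above LD (adjusted p = 6.97e-06), Mdm2 1.20 (5.17e-07) and Slc19a2 1.82 (5.17e-07). Of the class II genes 6 of 12 were lower, with a difference of −1.68 for H2-Ab1 (adjusted p = 0.00138) and −1.27 for Cd74 (0.00276). Of the luminal genes 35 of 45 were lower, with a median of −1.37. Krt8 was at 11.66 ± 0.30 (SD, n = 4) in LD and 9.17 ± 0.63 (SD, n = 4) in HD glands, a difference of −2.49 (adjusted p = 9.17e-05). LD against sham, which shares the sham arrays with HD against sham, called 0 genes by limma (1093, 9.26%, at an unadjusted p below 0.05), and its log2 fold changes were 0.31 for Cdkn1a, −0.18 for H2-Ab1 and 0.56 for Krt8.

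The HD response at 4 hr was set against that at 1 month, which has its own sham arrays. HD against sham at 1 month gave 1 gene higher (0.00847%) and 1 lower (0.00847%), 0.0169% in all. The difference between the responses passed for 14 genes (0.119%), all with the larger value at 4 hr, and for 1017 (8.61%) at an unadjusted p below 0.05. Of these, 7 are in the p53 arrest list (Dcxr, Ccng1, Mdm2, Polk, Trp53inp1, Zmat3 and Gtse1), and Aen and Ei24 are in the apoptosis list. Slc19a2 had a log2 fold change of 2.18 at 4 hr and 0.20 at 1 month (adjusted p of the difference 0.000132). Cdkn1a had 3.36 and 1.39, and the difference of 1.97 did not pass (adjusted p = 0.21). Of the class II genes 0 of 12 passed at 1 month, with log2 fold changes of −0.05 for H2-Ab1 and 0.02 for H2-Aa, and the differences from 4 hr did not pass (adjusted p = 0.225 and 0.266). HD replicate 1 at 1 month carried lymphoid transcripts, with the T cell list 2.28, the B cell list 2.61 and the class II list 1.43 above the median array, while the class II list lay between −0.25 and 0.06 on the other HD arrays. Without that array, a fit chosen after seeing the data, the values at 1 month were −0.38 for H2-Ab1 and −0.34 for H2-Aa, and the differences from 4 hr did not pass (adjusted p = 0.121 and 0.261). The difference between the times then passed for 15 genes, 12 with the larger value at 4 hr and 3 with the smaller, and 11 of the 15 were among the 14 (Gtse1, Thyn1 and Dglucy were not). Of the luminal genes 25 fell at 4 hr and 0 of 45 passed at 1 month, with list medians of −0.96 and −0.995. Krt8 had −1.94 and −1.31 (adjusted p of the difference 0.714).

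The strain comparison asked whether the HD response at 4 hr differed between BALB/c and C57BL/6. No gene passed in limma, with 698 at an unadjusted p below 0.05 (5.91%). The strains were hybridised on different plates, so strain and plate cannot be told apart. C57BL/6 HD against sham gave 51 genes higher (0.432%) and 52 lower (0.44%), including 11 of the p53 arrest list and 6 of the class II list. The log2 fold changes in BALB/c and C57BL/6 were 3.36 and 2.54 for Cdkn1a, 1.10 and 1.16 for Mdm2, 1.62 and 1.84 for Aen, and −1.86 and −1.92 for H2-Ab1. Krt8 had −1.94 and −0.66, and of the luminal list 25 fell in BALB/c and 4 in C57BL/6, and no member passed the test of the difference. Akap9, an anchor of protein kinase A, had the smallest p of the differences, with −0.49 in BALB/c and 0.45 in C57BL/6 (adjusted p = 0.11), and H2-Ea, at 4.22 on the C57BL/6 sham arrays, could not be compared between the strains. Slc20a2, a phosphate transporter, had 0.87 and 0.14 (adjusted p = 0.237).

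**Figure D5:**
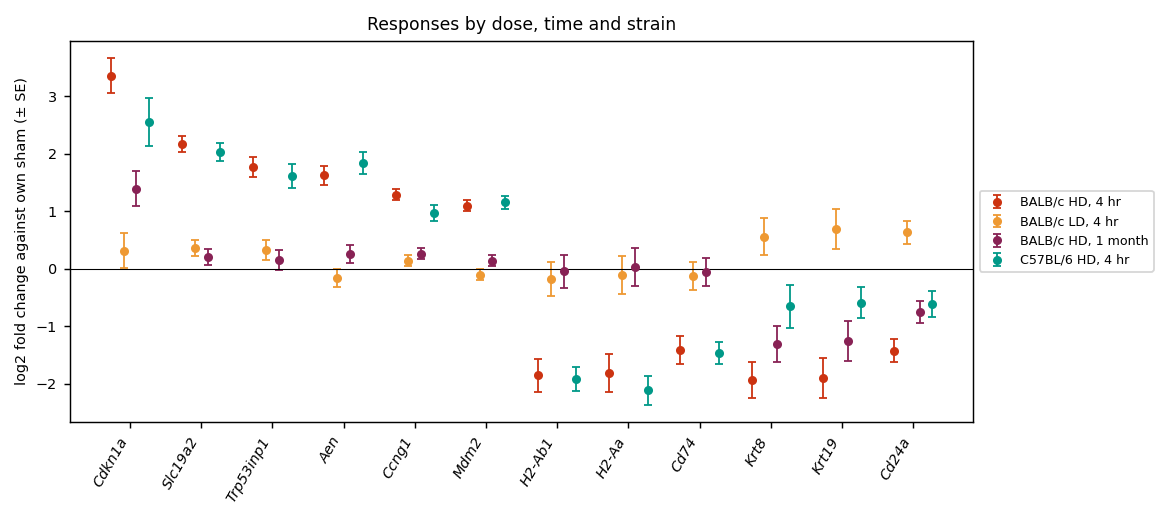
Log2 fold change against the matching sham group (y axis, with SE) of 12 genes (x axis) in BALB/c HD 4 hr, BALB/c LD 4 hr, BALB/c HD 1 month and C57BL/6 HD 4 hr; the first pair of comparisons share their sham arrays. H2-Ab1 is near 0 after LD and at 1 month and is −1.86 and −1.92 at 4 hr after HD in BALB/c and C57BL/6. Without HD replicate 1 at 1 month, which carried lymphoid transcripts, its value at 1 month is −0.38.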

How the data were processed

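The authors deposited log2 values after RMA (per the labels and methods, on Affymetrix HT Mouse Genome 430A plates, with NUSE used for array quality), and the tests ran on them without further normalization. Other details of the upstream software are not given in the sources used here. Of 22626 probe sets, 18003 carried 1 gene symbol in GEO's platform annotation, 287 several and 4336 none. A gene was read at its probe set with the highest mean over the 20 BALB/c MG arrays. Contrasts of group means were fitted with limma 3.58.1 in R 4.3.3 over all 20 BALB/c MG arrays, or all 43 MG arrays for the strain difference, with Benjamini-Hochberg adjustment over all probe sets. Other steps used Python 3.11.15 with pandas and matplotlib. The number of arrays limits the precision (median SE of a log2 fold change 0.129 over genes). Each array is a separate mouse. The paper states 4 mice per group for its arrays, and the samples here hold 3 sham arrays of BALB/c at 4 hr, all of them used.

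The arrays, gene lists and comparisons were chosen with earlier results of these data known. Lists held 838 entries, of which 702 were matched to a probe set by name. Bax, Trp53, Gdf15, Areg, Prlr and Krt17 are among those not analysed here. Named genes were the 12 with the largest rise and the 12 with the largest fall among those called with and without HD replicate 1 whose arrays did not overlap, the 4 members of each list with the smallest p, genes the paper names, defining cell type markers, Cdkn1a and Mdm2, and the 6 smallest p of each difference test. Further list members given with values (among them Zmat3, Sesn2, Phlda3, Btg2, Ercc5, Mgmt, Bbc3, Sesn1, Plk2, Ciita, H2-Eb1, the H2-DM genes, Cldn3, Kit, Erbb3, Muc1, Serpinh1, Lst1, Ppm1d, Ddb2, Xpc, Rrm2b, Cldn4, Cldn8, Foxa1 and Gata3) and Pvt1, Aen, Zmat3, Dglucy, Gtse1, Thyn1, Trp53inp1 and Ei24 as genes of the time difference, were chosen after their values were seen. A gene of several probe sets can differ between them: of 307 called genes with more than 1, 50 had a probe set in the other direction. The log2 fold changes of the probe sets ran from 0.56 to 2.18 for Slc19a2, 0.47 to 1.59 for Polk and −0.19 to 0.90 for Thyn1. They lay closer together for Ccng1 (1.29 to 1.45) and Mdm2 (1.10 to 1.35). The fit was also run on simulated arrays with known changes, and the outcome of that run is not given here. Coordinates are those of RefSeq genes in GRCm38.p6.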

Additional observations from a re-analysis of the deposited data

Results flagged for a closer look

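The gap between the extreme HD array and its nearest neighbour, as a share of the range of the 4 HD arrays, was above Dixon's critical value in 11 of 158 sets of values tested. Chance gives such a gap in about 1 of 20 sets. HD replicate 1 was the array concerned for Myh4 (0.988), Ckm (0.935), Tnnt3 (0.976) and for the mean level of the skeletal muscle list (0.987) and of the epidermal and hair list (0.914). The mean level of the heat shock list (0.932) was also set apart by HD replicate 1, over a range of −0.19 to −0.13. HD replicate 2 had the lowest Cox7a1 (0.896), HD replicate 3 the highest Mdm2 (0.913), Ciita (0.942) and Xpc (0.905), and HD replicate 4 the highest Lst1 (0.897).

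The HD response was larger at 4 hr than at 1 month, by the test of the difference, for Slc19a2 (log2 1.98), Trp53inp1 (1.61), Dcxr (1.48), Aen (1.37), Polk (1.35), Dglucy (1.21), Gtse1 (1.11), Pvt1 (1.09), Ccng1 (1.03), Pqlc3 (1.01), Zmat3 (1.01), Mdm2 (0.956), Thyn1 (0.915) and Ei24 (0.818).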

How the results depend on the processing

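Muscle or skin arrays here are HD replicate 1, sham replicate 1 and LD replicates 1 and 2, all at 4 hr. The number of genes higher in HD was 80 with only the 7 arrays fitted, 177 with the replicate block and 17 with plate column. It was 515 with brighter probe sets only, 551 with arrays centred on their medians, 76 without muscle or skin arrays and 154 at the study's thresholds. The number lower was 122, 191, 0, not changed by over 1.5 times, 228, 47 and not changed by over 1.5 times in the same order. Left out 1 array at a time, 96 to 421 genes were higher and 103 to 472 lower, the highest values being without BALB/c HD 1 month replicate 1, a fit chosen after seeing the data. Centring moved the median of all genes from −0.00397 to 0.0782. Genes that differed between HD and LD (931) were 187 with plate column, 334 with plate row, 1747 with array weights, 198 without muscle or skin arrays, 540 at the study's thresholds and 445 to 1137 with 1 array left out. The 14 genes of the time difference became 6 with only the arrays compared, 2 with plate column, 3 without muscle or skin arrays, 167 at the study's thresholds and 9 to 15 with 1 array left out. The strain difference was 1 gene with the replicate block, 85 at the study's thresholds and 0 to 3 with 1 array left out. Where the cause of such a shift is more than fewer arrays or fewer tests, it was not tested. Same-numbered HD and sham arrays had residual correlations of 0.182, 0.0243 and 0.303, against −0.373 to 0.355 for arrays with different numbers. So few arrays cannot settle whether the numbers pair the mice. The replicate block lost 28 calls among the 127 genes followed.

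Of 93 genes called among these, 14 were called in all 17 refitted alternatives. Genes without a value in the refit with brighter probe sets only could not be among the 14. With plate column the log2 fold change was positive for H2-DMb1 (0.19) and Ciita (0.00665), neither called. Ddb2, not called, was at 0.0166 with arrays centred on their medians and 0.00786 with quantile normalization repeated. Myh4, Ckm and Tnnt3 turned to −1.28, −1.09 and −1.04 without HD replicate 1 and to −0.29, −0.25 and −0.0702 without muscle or skin arrays, and reached 1.66, 1.49 and 1.84 without sham replicate 1.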
